A study of Bos taurus with 12 samples.

Results

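Hepatic mRNA of 10 genes that carry the insulin signal from the receptor to the FOXO transcription factors was followed in neonatal Holstein calves: INSR, IRS1, IRS2, PIK3R1, PDPK1, AKT1, AKT2, FOXO1, FOXO3 and FOXO4. The genes were chosen by symbol, with earlier results of these data known, and all 10 matched among the 30336 gene IDs of the count files. Each was read in every library and passed the filter on low counts, so that all 10 were tested among 13212 genes. Liver biopsies were taken at 4 d of age from heifer calves born to cows that received, for the last 28 d prepartum, either a control close-up diet (CON; 1.47 Mcal/kg of dry matter and 15.3% crude protein, no added Met) or that diet plus ethyl cellulose rumen-protected methionine (MET, Mepron). There were 6 libraries per maternal diet, the calves were managed alike after birth, and the treatment was given to the dam and never to the calf.

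In the liver, insulin binds its receptor tyrosine kinase, which phosphorylates the adaptors IRS1 and IRS2. The adaptors recruit PI3K, a lipid kinase made of a catalytic and a regulatory subunit, and its product brings PDPK1 and AKT together at the membrane. Active AKT phosphorylates the FOXO factors, which are then held in the cytoplasm by 14-3-3 proteins and no longer drive genes such as PCK1 and IGFBP1. Much of this control is exerted on proteins and is not read by mRNA counts. FOXO1 is itself known to raise transcription of INSR and IRS2.

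Libraries held 8277789 to 10397604 counted reads, and 3 reads equalled 0.289 to 0.362 reads scaled to a common library total (CPM), a floor that covers counting error only. CON replicates 1 and 4 were close to counting noise of each other (chi-square per gene of 1.33), and so were MET replicates 1 and 3 (1.24), against 25.1 to 132.9 for the other 64 pairs of libraries, although the labels give different animals. Each pair was therefore counted as 1 sample, values are mean ± SD over 5 samples per diet, and tests are given over the 12 libraries and over 10 samples, in which a pair's reads were summed. By the index sequences in the sample labels, each diet had its own first index on the single lane, and the effects of index and diet cannot be told apart. Hepatocyte markers were high in every sample, with a summed level of 144160 to 197230 CPM in CON and 118020 to 154320 CPM in MET samples for the 10 genes listed. The 4 islet and 6 muscle markers summed to at most 0.208 and 0.313 CPM, and of them INS, SST, ACTA1 and CKM had no read. The 7 erythroid markers summed to 7.64 to 961 CPM in CON and 57.1 to 460 CPM in MET samples. The 4 adipocyte markers summed to at most 6.02 CPM, and the endothelial and lymphocyte sums overlapped between the diets. The summed level of 8 Kupffer cell and macrophage markers was 1234 to 1689 CPM in CON and 1717 to 1935 CPM in MET samples, and 2 of the 8 were higher in MET calves over the 12 libraries (adjusted p, FDR, at most 0.10), as were 2.09% of all genes. Of the hepatocyte (10 tested), stellate cell (6) and cholangiocyte (4) markers 1 each was lower in that fit, beside 2.32% of all genes, and the summed levels overlapped between the diets. Over the 10 samples none of these markers, and no gene at all, had FDR at most 0.10. In bulk tissue, fewer cells of a type and less RNA per cell cannot be told apart, and the part of this in the results below was not tested.

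All 10 genes had lower fitted mRNA abundance in MET than in CON calves, and 2 passed the test over the 12 libraries: the receptor adaptor IRS1 and the transcription factor FOXO4. IRS1 fell by 31.7%, and FOXO4 fell by 30.9%. Of all genes tested, 2.32% were lower at FDR at most 0.10 and 4.41% were called in either direction, where FDR is the adjusted p of edgeR's quasi-likelihood test. Over the 10 samples 0% of all 13242 genes tested, and so 0 of the 10, had FDR at most 0.10 in that test (lowest FDR of any gene 0.156). Of the 10, 3 had an unadjusted p of at most 0.05 (IRS1, IRS2 and FOXO4), and DESeq2, run on the same samples, called 2 (IRS1 and FOXO4), where it called 2.53% of all genes as lower. At an unadjusted p of at most 0.05, 4 of the 10 were lower over the 12 libraries, where the background was 10.4% of all genes, and 3 over the 10 samples, where it was 8.52%.

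The median log2 fold change of the 10 genes was −0.25 over the 12 libraries and −0.21 over the 10 samples, beside 0.00 for all genes tested in both fits, and 50.4% of all genes had a log2 fold change below 0. The genes are long. Their median exonic length was 5742.5 bases against 2807 bases over all genes tested, and 7 of the 10 were among the 2642 longest genes (5023 to 30785 bases), of which 71.2% had a log2 fold change below 0 and the median was −0.14. The slope of log2 abundance on log2 length averaged 0.037 in CON samples (−0.029 to 0.094) and −0.048 in MET samples (−0.116 to 0.0023), and the slopes of the 10 samples differed by diet (p = 0.0238, exact two-sided permutation test). After each library's trend on gene length was removed, the median of the 10 genes was −0.18 over the 12 libraries and −0.17 over the 10 samples, and PIK3R1 turned positive over the 12 libraries. With this correction FOXO4 was the only one of the 10 with FDR at most 0.10 over the 12 libraries, where 1.07% of all genes were lower at that FDR and the calls in both directions went from 583 to 250.

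**Figure D1:**
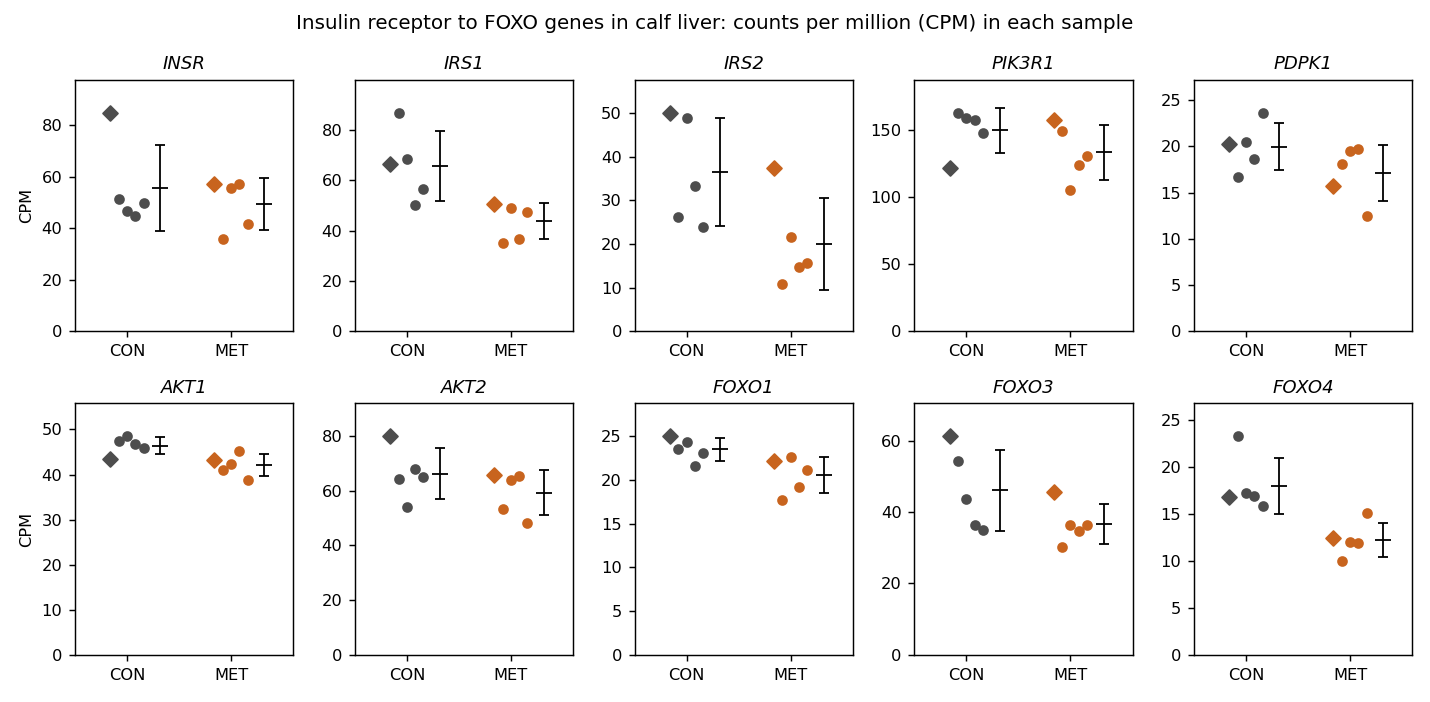
Level of each gene in CPM (vertical axis, from 0) in 5 CON and 5 MET samples. Diamonds are the library pairs counted as 1 sample, and the bars to the right of the points are mean ± SD. The diets do not overlap for FOXO4 (15.9 to 23.3 against 9.96 to 15.0 CPM) and overlap for the other 9 genes.

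INSR encodes the receptor itself (gene ID 408017, chr7:17276137-17421667, minus strand, as are all positions here on UMD 3.1.1). It was read at 366 to 771 reads per library. The level was 84.9 CPM in the averaged CON replicates 1 and 4 and 51.3, 46.7, 44.7 and 49.6 CPM in CON replicates 2, 3, 5 and 6. In MET calves it was 57.2 CPM in the averaged replicates 1 and 3 and 35.7, 55.7, 57.1 and 41.4 CPM in replicates 2, 4, 5 and 6. The CON pair stood far above the other CON samples, and 3 MET samples were above those other 4. The diets did not differ beyond the spread (55.4 ± 16.7 against 49.4 ± 10.1 CPM, n = 5), with a log2 fold change of −0.25 ± 0.19 (SE; FDR = 0.489) over the 12 libraries and −0.17 ± 0.20 (FDR = 0.712) over the 10 samples. Without CON replicate 4 the log2 fold change was −0.11, and without CON replicate 1 it was −0.14. In either fit the near-identical other library of that pair remained, and no fit left out the whole pair.

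IRS1 (gene ID 538598, chr2:115730741-115794597, minus strand) is one of the adaptors that the receptor phosphorylates. Its level was 66.4 CPM in the averaged CON replicates 1 and 4 and 86.9, 68.5, 50.2 and 56.5 CPM in CON replicates 2, 3, 5 and 6. In MET calves it was 50.6 CPM in the averaged replicates 1 and 3 and 35.0, 48.9, 36.8 and 47.5 CPM in replicates 2, 4, 5 and 6. The diets overlapped by a single pair of samples, the highest MET sample being just above the lowest CON sample (CON replicate 5). Abundance differed by a log2 fold change of −0.55 ± 0.14 (FDR = 0.0759) over the 12 libraries and −0.58 ± 0.16 (FDR = 0.176) over the 10 samples. The exact two-sided permutation p over the 10 samples was 0.0159 (adjusted over all genes, 0.231). The smallest exact permutation p that 5 samples per diet allow, 0.00794, became 0.212 after this adjustment, so that no gene could pass it. The call was lost after the length correction (−0.46, FDR = 0.144) and without any of 8 libraries: CON replicates 1, 3 or 4, or MET replicates 1, 2, 4, 5 or 6 (FDR from 0.1002 to 0.135, log2 fold change from −0.49 to −0.60).

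IRS2 (gene ID 100300012, chr12:88638501-88668940, minus strand), the other adaptor and a main carrier of the insulin signal in liver, had the largest fitted difference of the 10 genes and the widest spread. Its level was 50.2 CPM in the averaged CON replicates 1 and 4 and 26.3, 49.0, 33.3 and 23.9 CPM in CON replicates 2, 3, 5 and 6. In MET calves it was 37.4 CPM in the averaged replicates 1 and 3 and 10.8, 21.5, 14.7 and 15.7 CPM in replicates 2, 4, 5 and 6. In 4 of 5 MET samples IRS2 was below the lowest CON sample, while the MET pair was above 3 of the 5 CON samples. Its log2 fold change was −0.76 ± 0.31 (FDR = 0.193) over the 12 libraries and −0.86 ± 0.32 (FDR = 0.238) over the 10 samples. The exact two-sided permutation p over the 10 samples was 0.0476 (adjusted over all genes, 0.315).

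PIK3R1 (gene ID 282307, chr20:11325124-11421190, minus strand) encodes p85, the regulatory subunit of PI3K, and with 916 to 1726 reads per library it had the most reads of the 10 genes. Its level was 121 to 163 CPM in CON and 105.4 to 156.9 CPM in MET samples, and these ranges largely overlapped. The log2 fold change was −0.08 ± 0.13 (FDR = 0.765) over the 12 libraries, −0.17 ± 0.14 (FDR = 0.572) over the 10 samples and 0.06 ± 0.13 (FDR = 0.842) over the 12 libraries after the length correction. With 1 library left out it ranged from −0.13 (without MET replicate 1) to −0.014 (without MET replicate 4). PDPK1 (gene ID 100138102, chr25:2041471-2102426, plus strand), the kinase that phosphorylates the activation loop of AKT, was at 16.7 to 23.7 CPM in CON and 12.5 to 19.7 CPM in MET samples, with a log2 fold change of −0.25 ± 0.12 (FDR = 0.271) over the 12 libraries and −0.23 ± 0.14 (FDR = 0.453) over the 10 samples.

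AKT1 (gene ID 280991, chr21:70878392-70895620, minus strand) and AKT2 (gene ID 534923, chr18:49902540-49950126, minus strand) are the AKT kinases, and AKT2 is the form tied most closely to insulin action on metabolism. AKT1 was the steadiest of the 10 genes in CON samples relative to its mean (SD of 4.17% of the mean), at 46.4 ± 1.93 CPM against 42.1 ± 2.40 CPM in MET samples. The ranges were 43.4 to 48.5 and 38.9 to 45.2 CPM, and 4 of 5 MET samples were below the lowest CON sample. The log2 fold change was −0.12 ± 0.08 (FDR = 0.392) over the 12 libraries, and the exact two-sided permutation p over the 10 samples was 0.0159 (adjusted over all genes, 0.231). AKT1 is also the only one of the 10 among the 2643 shortest genes, with 1465 bases of exon, and the length correction moved its log2 fold change to −0.20 ± 0.08 (FDR = 0.209). AKT2 was at 66.3 ± 9.30 CPM in CON and 59.3 ± 8.08 CPM in MET samples, and its log2 fold change of −0.18 ± 0.12 (FDR = 0.419; −0.12 without CON replicate 1) was within the spread between samples.

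**Figure D2:**
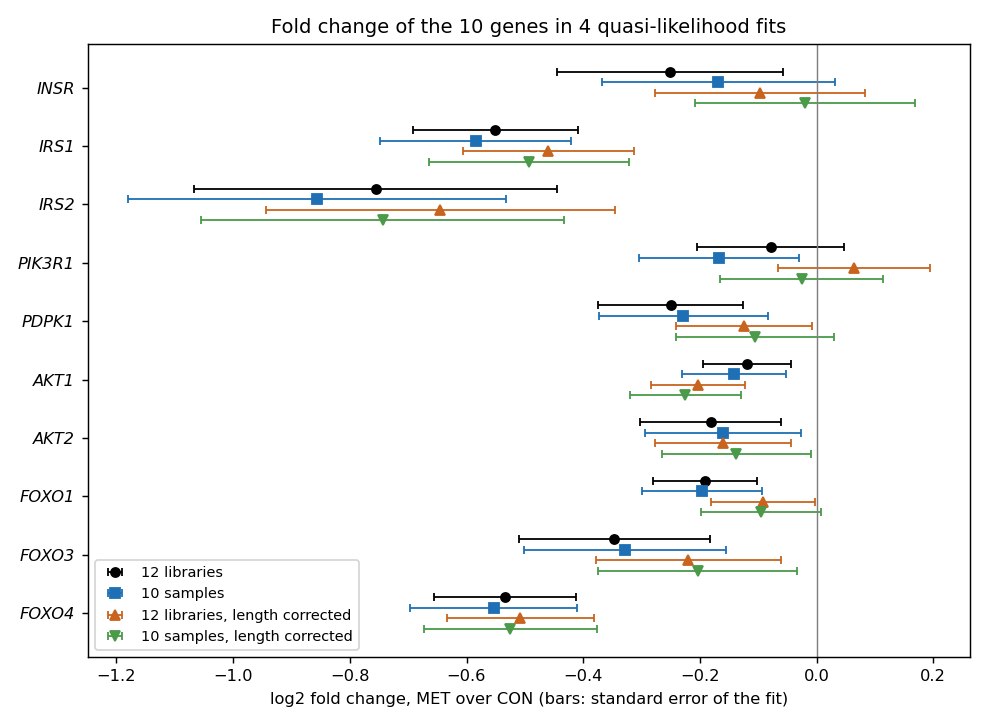
Log2 fold change of MET over CON (horizontal axis) for each of the 10 genes in 4 quasi-likelihood fits, with bars for the standard error. IRS1, IRS2 and FOXO4 lie furthest below 0 in each fit, and FOXO4 changes little with the length correction (−0.53 and −0.51 over the 12 libraries). The point of PIK3R1 is above 0 only over the 12 libraries with that correction.

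FOXO1 (gene ID 506618, chr12:21915296-22009081, plus strand), the form best known for driving gluconeogenic genes in liver, was at 25.0 CPM in the averaged CON replicates 1 and 4 and at 23.5, 24.4, 21.6 and 23.0 CPM in CON replicates 2, 3, 5 and 6. In MET calves it was at 22.1 CPM in the averaged replicates 1 and 3 and at 17.7, 22.6, 19.1 and 21.1 CPM in replicates 2, 4, 5 and 6. In 3 of 5 MET samples FOXO1 was below the lowest CON sample. The difference was small, with a log2 fold change of −0.19 ± 0.09 (FDR = 0.243) over the 12 libraries and −0.20 ± 0.10 (FDR = 0.365) over the 10 samples, and it was −0.09 ± 0.09 (FDR = 0.621) after the length correction. Its unadjusted p in the quasi-likelihood test over the 12 libraries was 0.0496. The exact two-sided permutation p over the 10 samples was 0.0317 (adjusted over all genes, 0.277).

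FOXO3 (gene ID 535530, chr9:41989615-42119998, minus strand), which drives autophagy and stress-resistance genes in other tissues, was at 35.0 to 61.2 CPM in CON and 30.1 to 45.7 CPM in MET samples. The highest level was that of the CON pair, and the highest MET level was that of the MET pair, as for IRS2. Its log2 fold change was −0.35 ± 0.16 (FDR = 0.250) over the 12 libraries and −0.33 ± 0.17 (FDR = 0.366) over the 10 samples. Without CON replicate 4 it was −0.25, and without CON replicate 1 it was −0.29. Here too the other library of the pair remained in the fit.

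FOXO4 (gene ID 618793, chrX:84822740-84831551, minus strand) had the lowest p of the 10 genes. Its level was 16.8 CPM in the averaged CON replicates 1 and 4 and 23.3, 17.3, 16.9 and 15.9 CPM in CON replicates 2, 3, 5 and 6. In MET calves it was 12.4 CPM in the averaged replicates 1 and 3 and 9.96, 11.97, 11.86 and 15.0 CPM in replicates 2, 4, 5 and 6. All 5 MET samples were below all 5 CON samples, which 1.78% of all genes tested showed in this direction. The log2 fold change was −0.53 ± 0.12 (FDR = 0.0635) over the 12 libraries, −0.55 ± 0.14 (FDR = 0.175) over the 10 samples and −0.51 ± 0.13 (FDR = 0.0895) over the 12 libraries after the length correction. The exact two-sided permutation p over the 10 samples was 0.00794, the smallest possible, and 0.212 adjusted over all genes. The call was lost without CON replicate 1 (FDR = 0.113) or CON replicate 4 (FDR = 0.117), with log2 fold changes of −0.55 in both cases.

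Ratios of related genes within a library do not depend on how libraries are scaled, and 5 were tested. The log2 ratio of FOXO4 to FOXO1 reads was −0.39 ± 0.23 in CON and −0.74 ± 0.16 in MET samples, a difference of −0.35 (exact two-sided permutation p = 0.0317, 0.159 adjusted over the 5 ratios). In 4 of 5 MET samples it was below the lowest CON sample, and the exception was MET replicate 6 at −0.48, against −0.57 to −0.02 in CON samples. The ratio of FOXO4 to FOXO3 differed by −0.24 (exact two-sided permutation p = 0.190) and that of FOXO3 to FOXO1 by −0.11 (exact two-sided permutation p = 0.484), which was −0.019 without the CON pair and −0.19 without CON replicate 6. The ratio of IRS2 to IRS1 was −0.89 ± 0.57 in CON and −1.24 ± 0.49 in MET samples and differed by −0.35 (exact two-sided permutation p = 0.381). The MET pair, at −0.44, stood above the other 4 MET samples. Without that pair the difference was −0.55 (exact two-sided permutation p = 0.135), and without CON replicate 2 it was −0.56 (exact two-sided permutation p = 0.111). The ratio of AKT2 to AKT1 was 0.50 ± 0.26 in CON and 0.48 ± 0.13 in MET samples and differed by −0.02 (exact two-sided permutation p = 0.897). No ratio passed the adjustment over the 5.

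Levels of different genes can be compared only per length of exon, and in CPM per kb of exon the order was AKT1 (30.2 ± 2.10), AKT2 (18.5 ± 2.65), PIK3R1 (14.9 ± 2.07), IRS1 (10.36 ± 2.95), INSR (5.85 ± 1.49), FOXO3 (5.84 ± 1.39), IRS2 (4.78 ± 2.35), FOXO4 (4.38 ± 1.11), FOXO1 (3.95 ± 0.41) and PDPK1 (2.58 ± 0.42; SD over the 10 samples of both diets). AKT1 was above AKT2, PIK3R1 above IRS1, IRS1 above INSR, and FOXO1 above PDPK1 in 10 of 10 samples. The neighbours INSR and FOXO3 (4 of 10 samples with INSR higher), IRS2 and FOXO4 (5 of 10) and FOXO4 and FOXO1 (6 of 10) could not be ordered beyond their spread. The place of AKT1 rests on an annotated transcript of 1465 bases, shorter than that of any of the other 9 genes (3391 to 9503 bases).

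**Figure D3:**
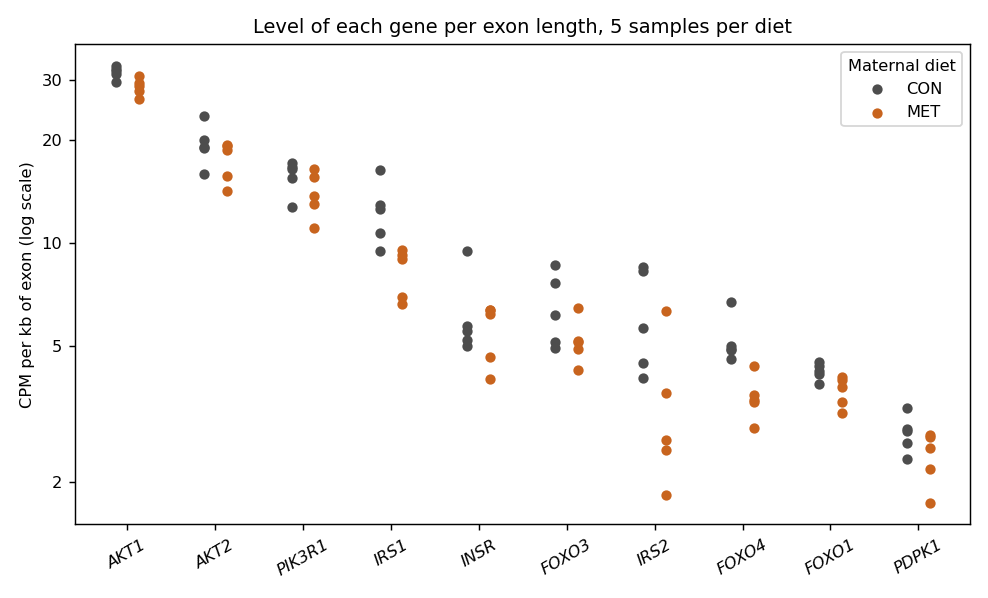
Level of each gene in CPM per kb of exon (vertical axis, log scale) in each of 5 CON and 5 MET samples, with genes ordered by their mean. AKT1 is highest (26.5 to 33.1) and PDPK1 lowest (1.74 to 3.29), and the points of INSR, FOXO3, IRS2 and FOXO4 overlap.

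Because FOXO1 is known to act on INSR and IRS2, these 3 genes were compared across the 10 samples after the mean of each diet was removed from log2 CPM. FOXO1 and IRS2 had the highest correlation of the 3 pairs, which did not pass 0.05 after adjustment (Pearson r = 0.74, exact permutation p = 0.0288, adjusted over 3 relations 0.0865; Spearman rho = 0.77, exact permutation p = 0.0186, adjusted 0.0558). Without CON replicate 5 and MET replicate 2, the samples farthest from the median of FOXO1, r was 0.73. For FOXO1 and INSR r was 0.60 (exact permutation p = 0.0808, adjusted 0.108; rho = 0.65, exact permutation p = 0.0779, adjusted 0.117), and without those samples it was 0.27, so that this relation rested on them. For INSR and IRS2 r was 0.58 (exact permutation p = 0.108, adjusted 0.108; rho = 0.56, exact permutation p = 0.127, adjusted 0.127), and 0.35 without the CON pair and MET replicate 2. The trend on gene length is shared by these long genes, and with it removed r for FOXO1 and IRS2 was 0.55 (exact permutation p = 0.194). Among all 45 pairs of the 10 genes, given as a description, r ran from −0.78 for PDPK1 and FOXO4 to 0.81 for INSR and AKT2, and 26 were above 0. By the same measure, FOXO4 was closest to IRS1 among the 10 genes (r = 0.75) and, among all genes tested, to HEBP2 (0.98), which encodes a heme-binding protein, PPP2R5D (0.95), which encodes a regulatory subunit of protein phosphatase 2A, and TALDO1 (0.94), an enzyme of the pentose phosphate pathway. These 3 had log2 fold changes of −0.03, 0.11 and 0.30 (FDR of 0.957, 0.581 and 0.181), and the likeness was measured within diets. They were picked as the highest of all genes tested. Their r without CON replicate 2, where FOXO4 stood apart from the other CON samples, is not given.

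The rest of the pathway was followed in 9 lists of 96 other genes, of which FOXO6 and EP300 were not analysed here and IRS4, PIK3R3 and SFN were below the filter. Of the 91 genes tested, 8 (8.79%, beside 2.32% of all genes) were lower at FDR at most 0.10 over the 12 libraries and 0 were higher. These were IDE, PIK3CA, MDM2, YWHAG, YWHAZ, PCK1, IGFBP1 and CAT. The lists were chosen with earlier results of these data known, so these shares do not test whether the pathway moved more than other genes. Over the 10 samples 0 had FDR at most 0.10 in the quasi-likelihood test, as was true of all genes, 16 were lower and 0 higher at an unadjusted p of at most 0.05 (8.52% and 7.83% of all genes), and DESeq2 called 8, all lower (2.53% of all genes), of which 6 were among those named. At that unadjusted p, 18 were lower and 3 higher over the 12 libraries, beside 10.4% and 10.2% of all genes. The median log2 fold change of the 91 was −0.05, and 55 were below 0. In 4 of the 91 (IDE, YWHAG, YWHAZ and CAT) all MET samples were below all CON samples, beside 1.78% of all genes.

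**Figure D4:**
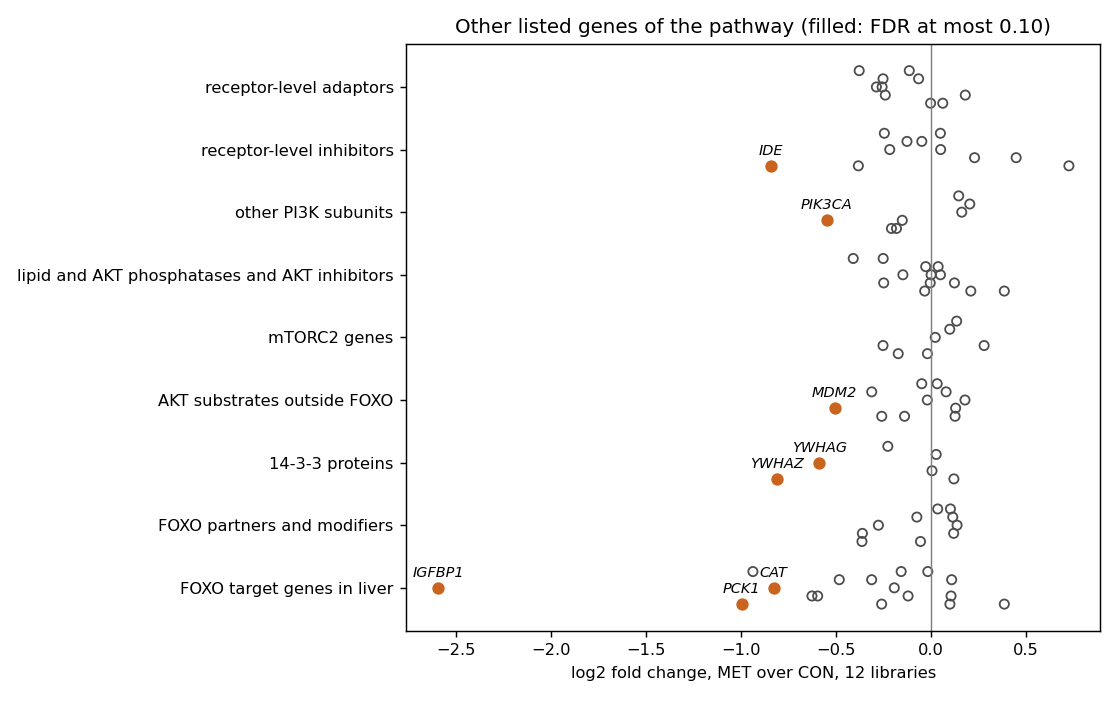
Log2 fold change of MET over CON over the 12 libraries (horizontal axis) for each tested gene of the 9 lists (rows; points are spread vertically for legibility). Filled points are the 8 called genes (FDR at most 0.10), all below 0, and IGFBP1 is the furthest at −2.59.

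Next to the receptor, 0 of 10 adaptors passed the test, with PTPN11, the phosphatase SHP2, at −0.38 (FDR = 0.403; −0.22 without CON replicate 3 and −0.24 without CON replicate 6) and SHC1, which links receptors to RAS, at 0.18 (FDR = 0.322) as the ends of the list. Among 11 genes listed as receptor-level inhibitors 1 passed, and it acts on insulin and not on the receptor. IDE, the enzyme that degrades insulin, fell from 12.001 ± 3.99 to 6.46 ± 1.23 CPM (log2 fold change −0.84 ± 0.20, FDR = 0.0679; 10 samples −0.89, FDR = 0.174). SOCS3, a feedback inhibitor of cytokine and insulin receptors, was at 24.2 ± 10.99 CPM in CON and 43.6 ± 31.9 CPM in MET samples, and its log2 fold change of 0.73 did not pass (FDR = 0.306), with MET replicate 5 alone at 96.0 CPM. Without that library it was 0.27 (FDR = 0.655).

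Of 7 other PI3K subunits 1 passed. PIK3CA, the p110 alpha catalytic subunit that insulin signalling in liver mainly uses, fell from 6.08 ± 1.36 to 4.17 ± 0.29 CPM (log2 fold change −0.55 ± 0.15, FDR = 0.0869; 10 samples −0.54, FDR = 0.202), although only 2 of 5 MET samples were below the lowest CON sample. PIK3CD, the form of white blood cells, was the upper end of the list at 0.21 (FDR = 0.460; 0.13 without CON replicate 2). None of 13 lipid and AKT phosphatases and AKT inhibitors passed at FDR at most 0.10, with PHLPP2, which dephosphorylates AKT, at −0.41 (FDR = 0.348; −0.225 without CON replicate 6) and TRIB1, a pseudokinase, at 0.39 (FDR = 0.227). Among genes of mTORC2, the complex that phosphorylates AKT at its tail, 0 of 7 passed, from TELO2, which helps to assemble mTOR complexes, at −0.25 (FDR = 0.555; −0.14 without CON replicate 6) to the subunit MLST8 at 0.28 (FDR = 0.191).

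Among 11 AKT substrates other than FOXO, MDM2, the ubiquitin ligase that limits p53, was the gene that passed. It fell from 43.4 ± 7.65 to 31.1 ± 6.67 CPM (log2 fold change −0.51 ± 0.14, FDR = 0.0889; 10 samples −0.48, FDR = 0.212), and TBC1D1, a regulator of glucose transporter traffic, was the upper end at 0.18 (FDR = 0.430). Of 6 proteins of the 14-3-3 family, which bind phosphorylated FOXO, 2 passed. YWHAG fell from 20.6 ± 2.44 to 13.2 ± 1.86 CPM (log2 fold change −0.59 ± 0.12, FDR = 0.0458; 10 samples −0.64, FDR = 0.156). YWHAZ fell from 3.89 ± 0.74 to 2.12 ± 0.42 CPM (log2 fold change −0.81 ± 0.19, FDR = 0.0674; 10 samples −0.86, FDR = 0.174), but at 17 to 46 reads per library, and since reads that match several places were not counted, a gene with close copies is uncertain. YWHAB was the upper end of that list at 0.12 (FDR = 0.565; 0.080 without MET replicate 3 and 0.19 without MET replicate 5). None of the 10 FOXO partners and modifiers passed, with the deacetylase SIRT1 at −0.36 (FDR = 0.208) and the ubiquitin ligase component SKP2 at 0.14 (FDR = 0.729; 0.044 to 0.33 with 1 library left out).

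Of 17 genes known as FOXO targets in liver, 3 fell over the 12 libraries (2.32% of all genes), 0 rose, and the median log2 fold change was −0.26, with 13 of 17 below 0 (50.4% of all genes). This list, too, was chosen with earlier results of these data known. Over the 10 samples 0 of the 17 had FDR at most 0.10, as for every gene tested. IGFBP1, which binds insulin-like growth factors and is a classical insulin-repressed gene, had the largest change. It was at 403, 101, 684, 125 and 395 CPM in the CON samples (the pair first, then replicates 2, 3, 5 and 6) and at 39.2, 1.76, 121, 67.6 and 81.3 CPM in the MET samples (the pair first, then replicates 2, 4, 5 and 6). In 4 of 5 MET samples it was below the lowest CON sample, and MET replicate 2 was far below the rest, with 18 reads. The log2 fold change was −2.59 ± 0.67 (FDR = 0.0766; 10 samples −2.46, FDR = 0.192).

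PCK1, which encodes the cytosolic phosphoenolpyruvate carboxykinase of gluconeogenesis, was at 827, 364, 532, 659 and 390 CPM in the CON samples and at 298, 400.0, 294, 275 and 240.2 CPM in the MET samples, in the same order. In 4 of 5 MET samples it was below the lowest CON sample, and the log2 fold change was −0.99 ± 0.21 (FDR = 0.0570; 10 samples −0.88, FDR = 0.175). CAT, the catalase that breaks down hydrogen peroxide, was at 1421 to 2275 CPM in CON and 1020 to 1228 CPM in MET samples. The diets did not overlap, and the log2 fold change was −0.83 ± 0.13 (FDR = 0.0398; 10 samples −0.81, FDR = 0.156). TRIB1 was also the upper end of this list.

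The next 4 genes were picked once their values were known. CDKN1A, a cell cycle inhibitor, TXNIP, an inhibitor of thioredoxin, and PDK4, which blocks pyruvate dehydrogenase, had log2 fold changes of −0.94, −0.62 and −0.59 with FDR of 0.113, 0.121 and 0.192. G6PC, the glucose-6-phosphatase that shares FOXO1 control with PCK1, was at 633 ± 186 CPM in CON and 489 ± 246 CPM in MET samples (log2 fold change −0.26, FDR = 0.673).

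**Figure D5:**
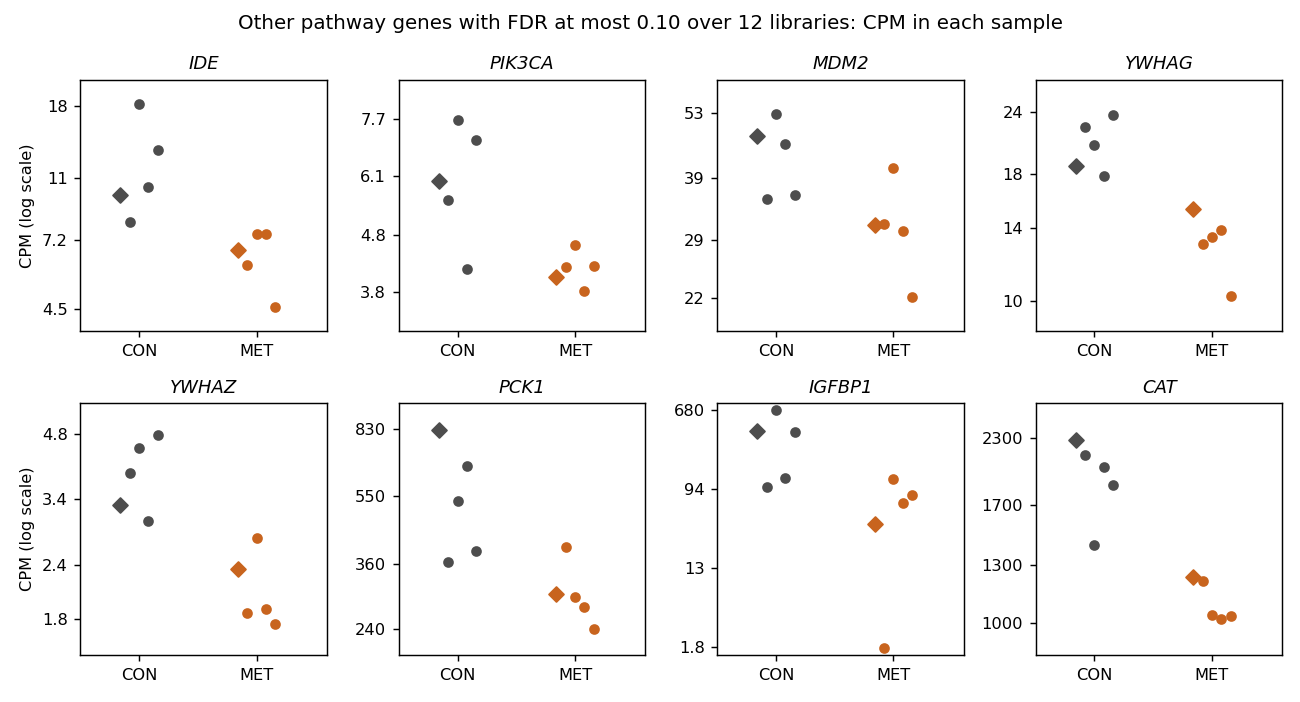
Level in CPM (vertical axis, log scale, a separate range in each panel) of the 8 other pathway genes called over the 12 libraries, in 5 CON and 5 MET samples. Diamonds are the library pairs counted as 1 sample. The diets do not overlap for IDE, YWHAG, YWHAZ and CAT.

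With 1 library left out, each of these 8 calls but that of CAT moved past the threshold in some fit, while the log2 fold changes stayed near those of all 12 libraries. Where CON replicate 1 or 4, or MET replicate 1 or 3, was left out, the near-identical library of that pair stayed in. Over the 10 samples CAT did not pass (FDR = 0.156), but from the 12 libraries it kept FDR at most 0.10 whichever library was left out. YWHAG lost it without CON replicate 1 (FDR = 0.104, log2 fold change −0.58), PCK1 without CON replicate 1 or 4 (FDR up to 0.123, −0.89 to −0.88), and IDE without CON replicate 1 or 4 or MET replicate 6 (FDR up to 0.113, −0.89 to −0.76). YWHAZ lost it without CON replicate 1, 3 or 4 or MET replicate 1 or 6 (FDR up to 0.119, −0.88 to −0.76). IGFBP1 lost it without CON replicate 1, 3, 4 or 6 or MET replicate 1, 3, 5 or 6 (FDR up to 0.135, −2.72 to −2.29). MDM2 lost it without any library but CON replicates 2 and 6 and MET replicate 4 (FDR up to 0.168, −0.52 to −0.43), and PIK3CA without any but CON replicates 2 and 5 (FDR up to 0.154, −0.58 to −0.47). After the length correction, with which 250 genes in all were called, 6 of the 8 kept FDR at most 0.10. PIK3CA (log2 fold change −0.53, FDR = 0.116) and MDM2 (−0.46, FDR = 0.127) did not.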

How the data were processed

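Liver RNA of 12 calves, 6 per maternal diet, was sequenced as stranded libraries from one end on 1 lane. Per the labels and the submitters' processing notes, reads were aligned with STAR 2.5.3a and assigned to genes with featureCounts of Subread 1.5.2, and the authors deposited raw counts of reads per gene without normalization, on UMD 3.1.1. Reads that matched several places were not counted. Symbols were matched through a table of bovine RefSeq genes. No genome sequence was used here.

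With R 4.3.3 and edgeR 4.0.16, CPM was scaled by TMM factors, the default filter was applied (minimum count 10, minimum total count 15), and a quasi-likelihood model whose only term was diet gave p-values, with Benjamini-Hochberg adjustment over 13212 genes and a threshold of 0.10. Fold changes are MET over CON, and ± beside them is the standard error. The same test was run on 10 samples with the library pairs summed. Exact tests used log2 CPM (prior count 2) and every arrangement of the 10 samples. Log ratios of reads used the same prior count. Gene length was corrected by removing each library's trend (span 0.5) through offsets. Alternatives were DESeq2 1.42.0, voom of limma 3.58.1, robust estimation, other scalings and filters, a replicate block, exact tests over the 12 libraries and each library left out. The steps were tested on simulated data. Figures were drawn with Python 3.11.15.

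Named are the 10 genes, each listed pathway gene with FDR at most 0.10, the gene with the highest and the lowest log2 fold change of each list, and the 3 genes most like the member with the lowest p. CDKN1A, TXNIP, PDK4 and G6PC were added once their values were known. A further gene of these lists is not reported here. The members and lists were chosen with earlier results of these data known.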

Additional observations from a re-analysis of the deposited data

Results flagged for a closer look

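In 70 groups of 5 samples (30 genes and 5 ratios in each diet), 2 held a sample whose gap to the nearest other exceeded 0.710 of the range of the group, and chance alone marks about 1 group in 20. INSR was at 84.9 CPM in the averaged CON replicates 1 and 4, against 44.7 to 51.3 CPM in the other 4 CON samples (gap of 0.836 of the range). FOXO4 was at 23.3 CPM in CON replicate 2, against 15.9 to 17.3 CPM in the other 4 CON samples (gap of 0.811 of the range). The cause of either value was not tested.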

How the results depend on the processing

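Of the 10 pathway genes, 2 were called over the 12 libraries. The number was 0 over 10 samples, with or without the gene length correction, where 0 of all genes were called (lowest FDR 0.156 and 0.152), 2 over 10 samples with DESeq2, 0 with a replicate block, with or without it, 1 with library size only, without a filter or with the length correction, and 0 to 2 with a library left out. Of the other listed genes, 8 were called, against 0 in the quasi-likelihood fits of 10 samples and in both block fits, 8 over 10 samples with DESeq2, 11 over the 12 libraries with DESeq2, 7 with voom, 7 with robust estimation, 1 with library size only, 5 without a filter and 1 to 9 with a library left out. IGFBP1 lost its call with voom (FDR = 0.101), robust estimation (0.1045), library size only (0.1012) and a replicate block. It kept the call in the other fits of all 12 libraries. The median of the 10 genes stayed between −0.30 and −0.17. PIK3R1 turned positive with the length correction (0.0644) and with block and length correction (0.0706). The ratio of FOXO4 to FOXO1 differed by −0.41 to −0.25 with a sample left out, and its p rose above 0.05 without the MET pair or MET replicate 2, 4 or 5. That of IRS2 to IRS1 differed by −0.56 to −0.23, and that of FOXO3 to FOXO1 by −0.19 to −0.019. That of FOXO4 to FOXO3 differed by −0.37 (exact permutation p = 0.0238) without the CON pair and ranged to −0.17. That of AKT2 to AKT1 ranged from −0.10 to 0.0773, positive without the CON pair (0.0773), MET replicate 2 (0.00825) or MET replicate 6 (0.0272). For FOXO1 and IRS2, r was 0.547 with the length correction and 0.633 to 0.789 with a sample left out, and its p rose above 0.05 with the correction and in 3 of the other cases. For FOXO1 and INSR it was 0.396 to 0.741, with an exact permutation p of 0.0104 without MET replicate 5 and 0.0278 without MET replicate 6, and for INSR and IRS2 0.439 to 0.714, with an exact permutation p of 0.0420 without CON replicate 3.

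Same-numbered calves did not deviate together (r from −0.190 to 0.148, and 0 of 6 numbers correlated best with their own), so the block joins samples that share a number only, and with it 6 genes in all were called. Depth limits the low genes: YWHAZ rests on 17 to 46 reads.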
